A study of Mus musculus with 12 samples.

Results

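The ER and integrated stress response genes described here are 9 genes chosen by name: Atf4, Ddit3, Ddit4, Ppp1r15a, Trib3, Xbp1, Hspa5, Herpud1 and Asns. They were found through the symbol column of the authors' table, with older names resolved by Entrez identifier, and they are 9 of 20972 genes with a probe set annotated to 1 symbol. Ppp1r15a is listed there under its older name Myd116. All 9 were among the 14044 genes bright enough to be tested, and 18 of their 20 probe sets passed the same filter.

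RNA came from the snap-frozen area at risk of the left ventricle of male mice aged 12 weeks on a BL6/C57 background, and each of the 12 samples was hybridized to 1 Affymetrix array. Wild-type mice and A2BAR-/- mice, which lack the adenosine A2B receptor encoded by Adora2b, were each studied as controls and after ischemic preconditioning (IP). IP was made in situ by repeating 5 min of coronary occlusion and 5 min of restored flow 4 times, and the hearts were then reperfused for 2 h. How the allele was made was not stated by the labels. Each genotype has 3 control and 3 IP arrays, which makes 4 groups. The labels call the controls untreated in one place and sham operated in another, and the wild-type mice bought in one place and littermates in another, so an effect of surgery cannot be told apart from IP, nor one of background from genotype, if the first wording of each holds. Whether each array is a separate animal is not stated. The p-values thus measure the spread between these samples only, which may be technical.

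The endoplasmic reticulum (ER) folds secreted and membrane proteins, and unfolded protein in it is sensed by the kinase PERK, the kinase and nuclease IRE1 and the membrane-bound factor ATF6. PERK and other kinases phosphorylate the initiation factor eIF2, which slows protein synthesis in general and favours translation of the mRNA of the transcription factor ATF4, a branch shared with amino acid shortage and other stresses and called the integrated stress response. ATF4 turns on genes of amino acid supply, growth arrest and cell death, and PPP1R15A, also called GADD34, brings a phosphatase to eIF2 and so ends the block. IRE1 splices Xbp1 mRNA into the form that encodes an active factor, and XBP1 and ATF6 turn on chaperones and the machinery that removes misfolded protein. In the heart, ischemia and reperfusion are known to engage these pathways. The arrays measure mRNA, so eIF2 phosphorylation, ATF4 protein and Xbp1 splicing were not measured.

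The promoters of the 9 genes were searched because the pathway is known to act on short DNA elements in some of them. In the 250 bases before and 50 bases after each RefSeq gene start (GRCm38.p6), 5 motifs were sought on both strands. The ER stress response element (ERSE) was spelled CCAAT, 9 bases of any kind and CCACG, and its second form (ERSE-II) ATTGG, 1 base of any kind and CCACG, both known for ATF6 binding. The element bound by ATF4 with C/EBP factors (CARE) was spelled TGATGNAA, the cAMP response element (CRE) TGACGTCA, and a core motif known for XBP1 TGACGTGG. Among 32851 RefSeq promoters of 27025 genes, ERSE was found in 0.119%, ERSE-II in 0.0365%, CARE in 3.97%, CRE in 1.79% and the XBP1 core in 0.676%. A match is a description of these letters and not evidence of binding.

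The 150 bases before the gene start are shown for the 4 genes with a match there, 5′ to 3′ on the gene's strand, with the matched letters in capitals. In Ppp1r15a (chr7:45526269-45526418, minus strand) the capitals mark a CRE that begins 12 bases before the start. In Hspa5 (chr2:34771940-34772089, plus strand) they mark an ERSE that begins 65 bases before the start. In Herpud1 (chr8:94386279-94386428, plus strand) they mark first a CARE read on the opposite strand, 112 bases before the start, and then an ERSE-II, 52 bases before it. In Asns (chr6:7693210-7693359, minus strand) they mark a CARE 23 bases before the start.
Ppp1r15a: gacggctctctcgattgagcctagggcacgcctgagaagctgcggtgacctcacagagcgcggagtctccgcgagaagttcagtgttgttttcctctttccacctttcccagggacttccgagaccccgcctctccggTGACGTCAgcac
Hspa5: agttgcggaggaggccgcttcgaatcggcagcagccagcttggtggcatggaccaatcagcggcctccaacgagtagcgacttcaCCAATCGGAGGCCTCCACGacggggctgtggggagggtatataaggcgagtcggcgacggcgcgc
Herpud1: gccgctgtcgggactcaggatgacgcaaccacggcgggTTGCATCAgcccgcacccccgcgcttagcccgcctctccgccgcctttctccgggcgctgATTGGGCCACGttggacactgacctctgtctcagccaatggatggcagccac
Asns: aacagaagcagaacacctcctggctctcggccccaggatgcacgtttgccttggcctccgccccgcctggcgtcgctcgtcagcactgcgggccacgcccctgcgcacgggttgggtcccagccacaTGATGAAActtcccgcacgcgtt
Trib3 had a CARE match after its start, outside the bases shown for the other genes. The letters of the 5 motifs were not in the windows of Atf4, Ddit3, Ddit4 and Xbp1.

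The median array signal was between 66.5 and 81.1 units, and with 3 arrays per group precision is limited by their number. The third wild-type control array has a run of 1425 probe sets at a signal of 0, with a median of 639 units on the other arrays, which was treated as missing; of the 9 genes it touches only Ddit3. Adora2b read 42.1, 71.1 and 72.0 units in wild-type control hearts, 207, 165 and 156 in wild-type IP hearts, 18.6, 52.0 and 62.6 in knockout control hearts and 52.3, 61.5 and 47.7 in knockout IP hearts. The genotypes did not overlap after IP (log2 −1.45 ± 0.33 SE, knockout minus wild type, limma adjusted p = 0.096) and overlapped in controls, so this check of the labels is weak. The 7 cardiomyocyte markers were bright on every array, with summed signals of 313534 to 343297 units in wild-type control, 364479 to 375965 in wild-type IP, 314824 to 341848.5 in knockout control and 312908 to 332869 in knockout IP hearts. The wild-type IP sums lay above all others, and 3 of the 7 (Myh6, Actc1 and Tnnt2, by 0.19 to 0.25 log2) passed as higher with IP in wild-type hearts and 0 in knockout hearts. Summed signals of the 5 neutrophil markers that passed the filter, of 8 listed, were 767 to 8390 units in wild-type control, 8184 to 23750 in wild-type IP, 1198 to 2006 in knockout control and 7020 to 15240 in knockout IP hearts, and Cxcr2, Ly6g and Retnlg were below the filter. All 5 passed as higher in wild-type IP hearts and 4 in knockout IP hearts. Of 6 endothelial markers, Kdr, Tek and Egfl7 passed as lower in each genotype. Pecam1, Cdh5 and Vwf did not pass, with changes of 0.11, 0.21 and 0.13 log2 in wild-type and 0.29, 0.10 and 0.22 in knockout hearts. Hba-a1, 1 of 2 tested red cell markers, and Lyve1, 1 of 7 macrophage markers, passed as higher in wild-type hearts (0.62 and 0.91 log2). Ttr of hepatocytes passed as higher in both genotypes, while Alb and Apoa1 were below the filter. Col3a1, 1 of 6 fibroblast markers, passed as lower in wild-type hearts, and Pdgfrb and Cspg4, 2 of 5 mural markers, in knockout hearts. The other tested markers of these lists did not pass, and among the macrophage, fibroblast and mural ones the changes had both signs. The part of these cell types in the results below was not tested, and in bulk tissue fewer cells of a type cannot be told apart from less RNA per cell.

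**Figure D1:**
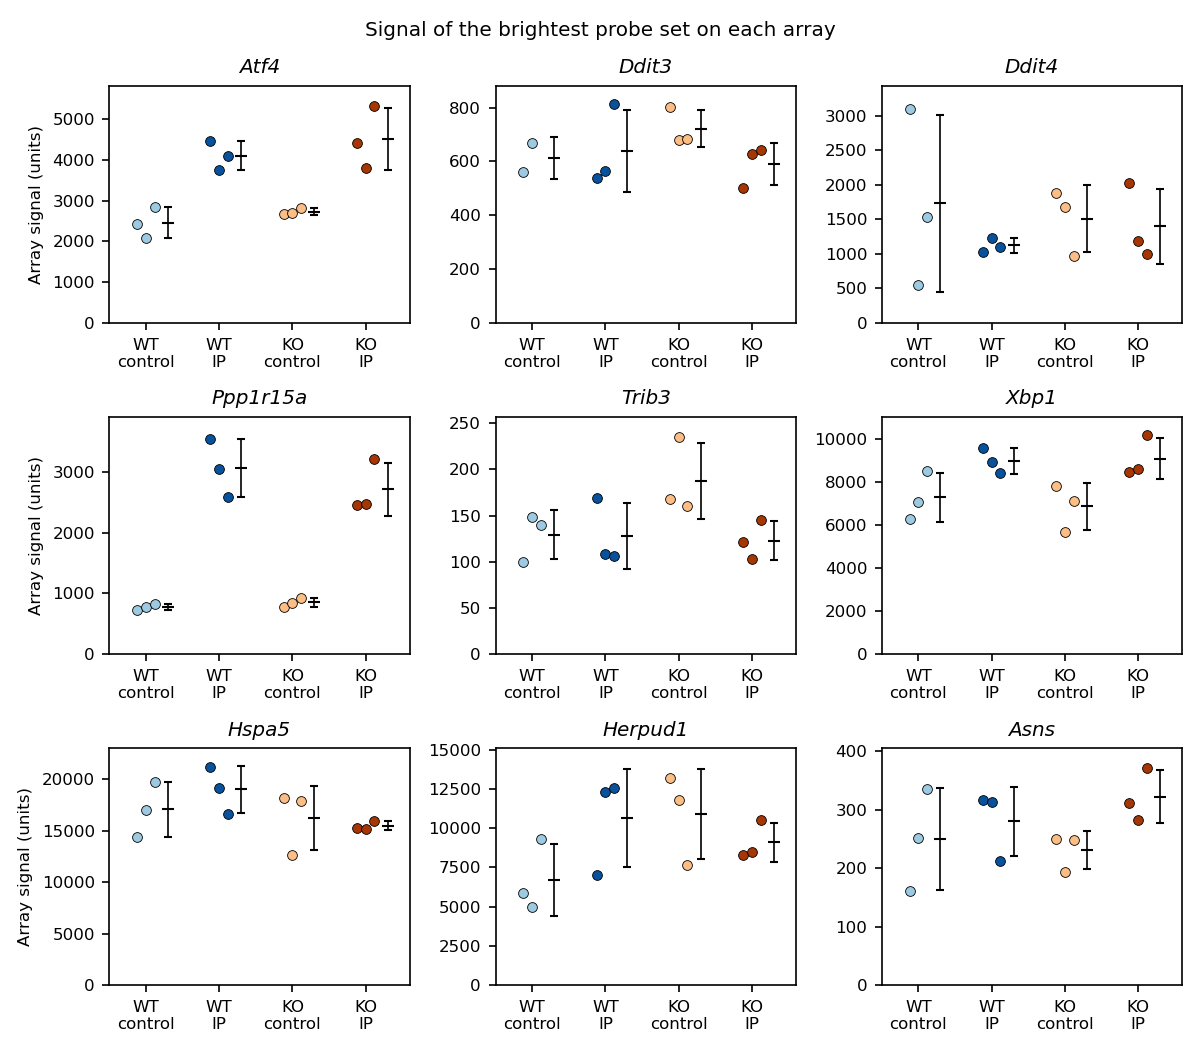
Array signal in units (linear axis from 0) of the brightest probe set of each of the 9 genes, with 1 point per array in the 4 groups and, beside the points, the mean and SD of each group (n = 3, and 2 for Ddit3 in wild-type control). The IP arrays of Atf4 (3754 to 5319 units) and Ppp1r15a (2459 to 3550 units) lie above all control arrays in both genotypes, and those of Ddit4 lie within the range of its wild-type controls (556 to 3102 units).

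The mRNA of Atf4 and of Ppp1r15a was higher in IP than in control hearts in both genotypes, and that of Xbp1 over both genotypes together. None of the 9 genes passed as lower by its brightest probe set. Hspa5 and Ddit3, which are standard readouts of ER stress, did not pass in either genotype. With limma, 2 of 9 genes passed in wild-type hearts, both higher, where 16.6% of all genes tested passed and 6.54% passed as higher. In knockout hearts 3 of 9 passed, all higher, where 12.1% of all genes tested passed and 4.82% passed as higher. The IP and control arrays did not overlap in 2 of the 9 genes in wild-type hearts, beside 33.5% of all genes tested, and in 6 of the 9 in knockout hearts, beside 32.2%. With 9 genes these counts are too small to set the group apart from the background. The median log2 change of the 9 genes was 0.19 in wild-type hearts, against −0.05 over all genes tested, and −0.05 in knockout hearts, against −0.08 over all genes tested.

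Ppp1r15a, the phosphatase subunit that reverses eIF2 phosphorylation, had the largest change of the 9. The authors' table places it on chromosome 7, 45390962 to 45394255, in a genome build not given in the sources used here. Its probe set 1448325_at read 734, 781 and 826 units in wild-type control hearts and 3550, 3054 and 2595 units after IP (mean 780 ± 46.0 against 3066 ± 478, SD, n = 3 each). In knockout hearts it read 781, 846 and 932 units as controls and 2459, 2474 and 3215 units after IP (853 ± 76.0 against 2716 ± 432, SD, n = 3 each). Every IP array was above every control array of either genotype. The rise was 3.84-fold in wild-type hearts (log2 1.94 ± 0.13 SE, limma adjusted p = 3.8e-07) and 3.13-fold in knockout hearts (1.65 ± 0.13, adjusted p = 1.6e-06). In wild-type hearts Ppp1r15a had the 9th smallest p of 14044 genes, and in knockout hearts the 22nd. The knockout rise minus the wild-type rise was −0.30 log2, with a 95% interval from −0.69 to 0.09 (adjusted p = 0.73), so a difference between the genotypes was not shown, and one of up to 0.69 log2 is within the interval.

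Atf4 encodes the transcription factor at the centre of the integrated stress response, placed by the authors' table on chromosome 15, 80082756 to 80084759. Its brightest probe set, 1448135_at, read 2438, 2083 and 2844 units in wild-type control hearts and 4455, 3754 and 4099.9 units after IP (2455 ± 381 against 4103 ± 351, SD, n = 3 each). In knockout hearts it read 2666, 2689.97 and 2819.9 units as controls and 4413, 3809.8 and 5319 units after IP (2725 ± 82.7 against 4514 ± 759.8, SD, n = 3 each). The groups did not overlap in either genotype. Atf4 rose 1.68-fold in wild-type hearts (log2 0.75 ± 0.12 SE, limma adjusted p = 0.0011) and 1.64-fold in knockout hearts (0.71 ± 0.12, adjusted p = 0.0016). The difference between the genotypes was −0.03 log2, with a 95% interval from −0.41 to 0.34. A second probe set, 1438992_x_at, which read 297 to 421 units in wild-type control and 644 to 829 units in wild-type IP hearts, rose by 0.91 ± 0.17 in wild-type and 0.77 ± 0.17 in knockout hearts (SE; adjusted p = 0.0031 and 0.010 over all probe sets). The third, 1439258_at, read 5.03 to 54.9 units over the 12 arrays and was below the filter. ATF4 is known for control at translation, so an mRNA level does not give the amount of the factor.

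The third wild-type control array had the highest neutrophil marker sum of the controls, 8390 units, which lies inside the wild-type IP range. On that array Ppp1r15a read 826 units and Atf4 2844 units, both the highest of the wild-type control arrays and below every IP array. Without it, both still passed in wild-type hearts, but leaving out the highest control value could only raise these changes. The part of neutrophils in the 2 rises was not tested.

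Xbp1 encodes the transcription factor of the IRE1 branch, which turns on genes of folding, secretion and disposal in the ER, and the authors' table places it on chromosome 11, 5420970 to 5425875. Its brightest probe set, 1437223_s_at, read 6302, 7058 and 8524 units in wild-type control hearts and 9595, 8931 and 8429.6 units after IP. In knockout hearts it read 7812, 5658 and 7131 units as controls and 8475, 8634 and 10182 units after IP. The knockout groups did not overlap, while in wild type the third control array stood above the lowest IP array. Averaged over both genotypes Xbp1 rose 1.28-fold (log2 0.36 ± 0.09 SE, limma adjusted p = 0.0067), as 1 of 3 genes of the 9 that passed in that average, all higher, where 26.2% of all genes tested passed and 8.52% passed as higher.

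Within knockout hearts the rise of Xbp1 was 1.33-fold (log2 0.41 ± 0.12 SE, limma adjusted p = 0.041), and within wild-type hearts the change was 0.31 ± 0.12 (adjusted p = 0.10). The difference between them was 0.10 log2, with a 95% interval from −0.27 to 0.48. The knockout call ended under 12 of the alternatives, 7 of which leave out 1 array (the second wild-type control or IP array, the knockout control arrays 2 and 3, or any of the 3 knockout IP arrays), with adjusted p up to 0.18. In wild-type hearts Xbp1 passed without the third control array (0.43, adjusted p = 0.032). The average over both genotypes passed under each of the 22 alternatives that gave one, which leave out the authors' table.

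The other 3 probe sets of Xbp1 gave averages over both genotypes of 0.42 ± 0.07 (1420886_a_at), 0.37 ± 0.08 (1420011_s_at) and 0.65 ± 0.19 (1420012_at), and all 4 passed in the fit over probe sets, where 20.3% passed. In knockout hearts 1420886_a_at and 1420011_s_at passed (0.55 ± 0.10 and 0.48 ± 0.11), where 8.85% of probe sets passed, and 1437223_s_at and 1420012_at did not (adjusted p = 0.051 and 0.24). In wild-type hearts none of the 4 passed, with changes of 0.26 to 0.76 log2. In the authors' deposited table, 2 of the 4 Xbp1 probe sets carry a call as higher in knockout hearts, where 4.18% of all probe sets do, and 0 in wild-type hearts, where 4.39% do.

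**Figure D2:**
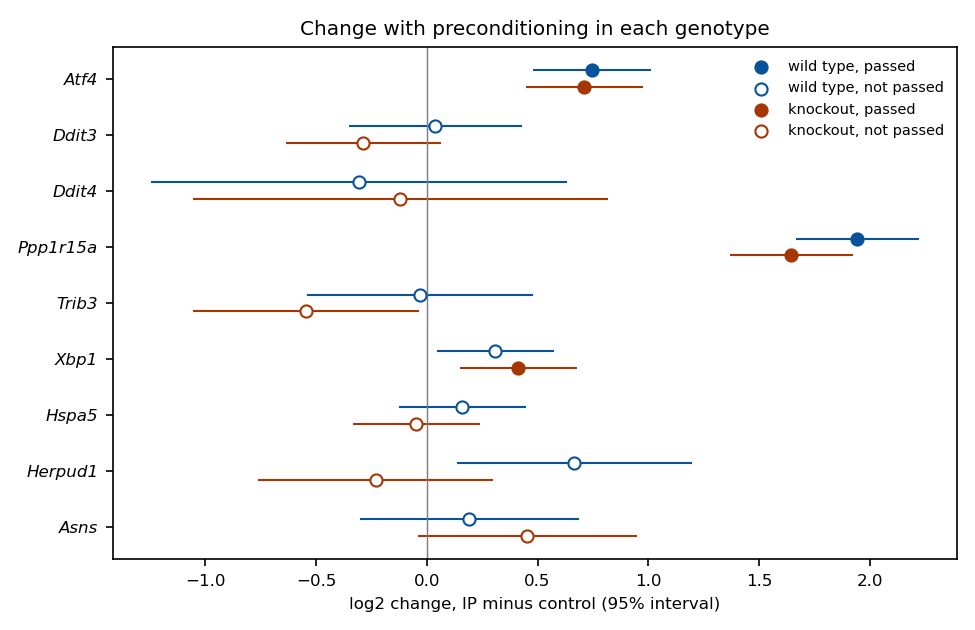
Change in log2 (signal + 16) from control to IP for each of the 9 genes in wild-type (blue) and knockout (brown) hearts, as points with 95% intervals from limma, filled where the gene passed. Atf4 and Ppp1r15a are filled in both genotypes and Xbp1 in knockout hearts, and the intervals of both genotypes overlap for every gene.

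Ddit3 encodes CHOP, the transcription factor tied to cell death after lasting ER stress, and is a target of ATF4. Its probe set 1417516_at read 559 and 669 units in the 2 wild-type control arrays that measured it, 538, 566 and 814 units in wild-type IP hearts, 801, 680.2 and 685 units in knockout control hearts and 501, 628 and 643 units in knockout IP hearts. The wild-type groups overlapped, and each knockout IP array was below each knockout control array. The changes were 0.04 ± 0.18 log2 in wild-type hearts and −0.29 ± 0.16 in knockout hearts (SE; limma adjusted p = 0.92 and 0.29), in a fit of 11 arrays, since the signal of wild-type control array 3 was treated as missing. The 95% interval in wild-type hearts reached from −0.35 to 0.43, so a rise of the size of that of Ppp1r15a lies outside it.

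Trib3 encodes a pseudokinase that CHOP and ATF4 turn on and that restrains ATF4. Its brightest probe set, 1426065_a_at, read 99.7, 149 and 139.9 units in wild-type control hearts, 169, 108 and 106 units in wild-type IP hearts, 168, 235 and 160.3 units in knockout control hearts and 121, 103 and 145 units in knockout IP hearts. The knockout control arrays stood above those of the other 3 groups, except 1 wild-type IP array. The changes with IP were −0.03 ± 0.24 log2 in wild-type and −0.55 ± 0.24 in knockout hearts (SE; limma adjusted p = 0.95 and 0.16).

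The second probe set of Trib3, 1456225_x_at, gave another pattern. It read 167, 126 and 106 units in wild-type control hearts and 16.8, 79.3 and 16.8 units in wild-type IP hearts, and in knockout hearts 194, 92.8 and 117 units as controls and 121, 71.9 and 131 units after IP. It fell by 1.65 log2 in wild-type hearts (SE 0.40, limma adjusted p = 0.014 over all probe sets, of which 12.1% passed) and changed by −0.26 ± 0.40 in knockout hearts. The larger fall was thus in wild-type hearts by 1456225_x_at and in knockout hearts by 1426065_a_at, where it did not pass, and neither passed as higher. The fall of 1456225_x_at rests mostly on 2 wild-type IP arrays at 16.8 units, near the offset of 16 added to each signal. The authors' deposited table has 1426065_a_at called lower in both genotypes, where 7.6% (wild type) and 6.08% (knockout) of all probe sets are, at −0.27 in wild-type and −0.33 in knockout hearts. For 1456225_x_at it gives −0.47 in wild-type and −0.18 in knockout hearts, with no call in either.

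Asns encodes asparagine synthetase, a target of ATF4 in amino acid shortage. Its probe set 1451095_at read 161, 252 and 336 units in wild-type control hearts and 316, 312 and 212 units after IP, and in knockout hearts 251, 194 and 248 units as controls and 312, 283 and 372 units after IP. The wild-type groups overlapped, and each knockout IP array was above each knockout control array. The changes were 0.19 ± 0.23 log2 in wild-type and 0.45 ± 0.23 in knockout hearts (SE; limma adjusted p = 0.63 and 0.23). The second probe set gave 0.28 ± 0.33 and 0.57 ± 0.33. Its promoter holds the CARE shown above, and what binds there was not measured.

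Ddit4 encodes REDD1, an inhibitor of mTORC1 that ATF4, glucocorticoids and hypoxia are known to turn on. It read 3102, 556 and 1535 units in wild-type control hearts, 1027, 1236 and 1104 units in wild-type IP hearts, 1886, 1675 and 969 units in knockout control hearts and 2019, 1188 and 992 units in knockout IP hearts. Its wild-type control arrays differed 5.58-fold among themselves, and the 3 wild-type IP arrays 1.20-fold. The spread within groups (SD 0.72 log2) was higher than in 99.7% of 1000 genes of like mean signal. The changes were −0.31 ± 0.44 log2 in wild-type and −0.12 ± 0.44 in knockout hearts (SE; limma adjusted p = 0.69 and 0.90), with 95% intervals from −1.24 to 0.63 and from −1.06 to 0.82. Without the first wild-type control array the wild-type change was 0.27 log2.

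Hspa5 encodes BiP, the chaperone that holds the ER stress sensors inactive and the classical target of ATF6, with the ERSE shown in its promoter. Its brightest probe set, 1416064_a_at, read 14404, 17077 and 19800.3 units in wild-type control hearts and 21236, 19204 and 16675 units after IP. In knockout hearts it read 18186, 12623 and 17888 units as controls and 15299, 15205 and 15998 units after IP. The control and IP groups overlapped in both genotypes. The changes were 0.16 ± 0.13 log2 in wild-type and −0.05 ± 0.13 in knockout hearts (SE; limma adjusted p = 0.46 and 0.87), and the 95% interval of their average, from −0.15 to 0.26, excludes a rise of the size found for Atf4. The other 2 probe sets of Hspa5 gave −0.12 ± 0.12 and 0.28 ± 0.18 in wild-type hearts and 0.04 ± 0.12 and 0.12 ± 0.18 in knockout hearts, none past the threshold.

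Herpud1 encodes a membrane protein of ER-associated degradation and is among the genes most readily turned on by ER stress, with the ERSE-II and CARE shown in its promoter. Its brightest probe set, 1448185_at, read 5850.2, 4984 and 9328 units in wild-type control hearts and 7036, 12316 and 12556 units after IP. In knockout hearts it read 13218, 11816 and 7656 units as controls and 8292, 8459 and 10541 units after IP. The groups overlapped in both genotypes. The change was 0.67 ± 0.25 log2 in wild-type hearts (SE; limma adjusted p = 0.084) and −0.23 ± 0.25 in knockout hearts (adjusted p = 0.61). In wild-type hearts it passed without the third control array (0.93, adjusted p = 0.018) and without the first IP array (0.94, adjusted p = 0.025), and its spread within groups was higher than in 98.9% of 1000 genes of like mean signal.

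The knockout change of Herpud1 minus its wild-type change was −0.90 ± 0.35 log2 (SE), with a 95% interval from −1.65 to −0.15, an unadjusted p of 0.023 and a limma adjusted p of 0.58. It was the 550th smallest p of the 14044 genes in that comparison. The second probe set, 1435626_a_at, gave −0.40 ± 0.40, and the difference did not pass under any alternative tried. The wild-type and knockout changes thus had opposite signs by 1448185_at, while by 1435626_a_at they were 0.43 ± 0.28 and 0.03 ± 0.28. For 1448185_at the authors' deposited table gives 0.47 in wild-type and 0.0023 in knockout hearts and a difference of −0.47, so the signs are not opposite there and the difference is smaller.

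**Figure D3:**
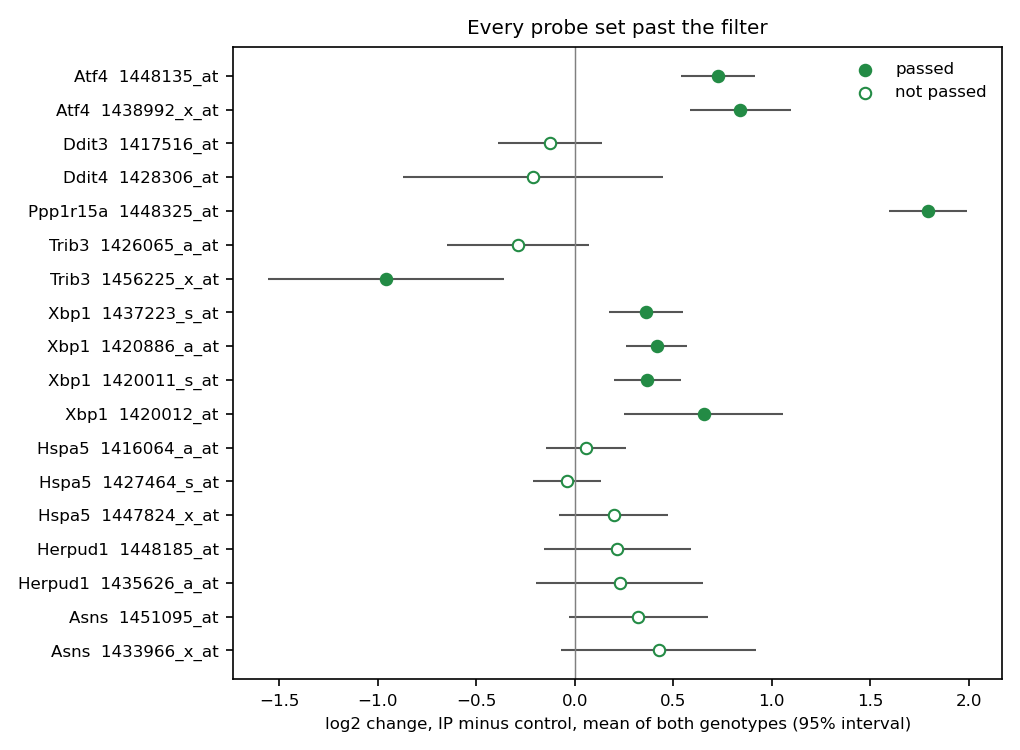
Change in log2 (signal + 16) from control to IP, averaged over both genotypes, for each of the 18 probe sets of the 9 genes that passed the filter, with 95% intervals from limma and filled points where the probe set passed over all 27022. Both probe sets of Atf4, the 1 of Ppp1r15a and all 4 of Xbp1 are filled above 0, and 1456225_x_at of Trib3 is filled below 0.

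The comparison of knockout with wild-type hearts asks whether the receptor changes these levels without IP or after it. None of the 9 genes passed in control hearts, where 0.0356% of all genes tested passed, or in IP hearts, where 0.114% passed. In the test of the difference in the IP effect 0 of 9 passed by limma, and 0% of all genes tested. By the brightest probe set, 1 of the 9 had an unadjusted p below 0.05 in each of these comparisons: Herpud1 in control hearts, where 6.59% of all genes tested did, Hspa5 in IP hearts, where 12.7% did, and Herpud1 in the difference, where 7.87% did. A count of 1 in 9 is near these shares. The Herpud1 values are not separate, since both comparisons use the wild-type control arrays, as does its change with IP in wild-type hearts. In that group its mean was lowest, at 12.67 log2, beside 13.15 to 13.38 in the other groups.

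In control hearts Herpud1 was at 10897 ± 2893 units in knockout and 6721 ± 2299 units in wild type (SD, n = 3 each), a log2 difference of 0.71 ± 0.25 (SE; unadjusted p = 0.012, limma adjusted p = 0.64), and the lowest knockout array was below the highest wild-type array. Trib3 and Ddit3 were the 2 genes whose knockout control arrays all lay above the wild-type control arrays, which 5.92% of all genes tested also showed. Their differences were 0.49 ± 0.24 and 0.23 ± 0.18 log2 (limma adjusted p = 0.79 and 0.88). For Ddit3 this sets 3 arrays against 2, where a lack of overlap is easier to reach than with 3 against 3. The remaining 6 genes differed by −0.09 to 0.16 log2 between the genotypes in control hearts.

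In IP hearts Hspa5 read 15205 to 15998 units in knockout and 16675 to 21236 units in wild type by 1416064_a_at, with no overlap, as 11.9% of all genes tested did in this direction. The difference was −0.29 ± 0.13 log2 (SE; unadjusted p = 0.047, limma adjusted p = 0.38), while 1427464_s_at gave 0.02 ± 0.12 and 1447824_x_at 0.06 ± 0.18. The 3′ to 5′ signal ratio of the beta-actin control probe sets was 1.79 to 1.93 on the knockout IP arrays and 2.33 to 2.62 on the wild-type IP arrays, and its part in this difference was not tested. In the same comparison the 7 cardiomyocyte markers differed by −0.24 to −0.05 log2, lower in knockout hearts and none past the threshold (Myh6 −0.24, Tnnt2 −0.23, adjusted p = 0.080 each), and the part of this in the Hspa5 value was likewise not tested. The other 8 genes differed by −0.19 to 0.25 log2 between the genotypes after IP by their brightest probe sets. The second probe set of Trib3, 1456225_x_at, gave the largest difference of the 18 probe sets here, 1.37 ± 0.40 log2 (SE; unadjusted p = 0.0036, limma adjusted p = 0.13 over all probe sets), although the groups overlapped. By that probe set the knockout change with IP minus the wild-type change was 1.39 ± 0.56 (unadjusted p = 0.026, adjusted p = 0.63), and by the brightest one it was −0.51 ± 0.34. For 1456225_x_at the authors' deposited table gives 0.20 between the genotypes after IP and 0.30 for the difference of the changes. It gives −0.06 for the latter by 1426065_a_at. The lowest wild-type IP signal of 1456225_x_at was 16.8 units.

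Over the 12 arrays, Atf4 and Ppp1r15a had a Pearson correlation of 0.93 on the log2 scale, and both correlated with Xbp1 (0.80 and 0.79). These values hold the group differences and the shared scaling of each array, and are given as a description. With group means taken off, the highest correlations among the 8 genes with values on all 12 arrays, which leave out Ddit3, were those of Xbp1 with Hspa5 (0.92), Hspa5 with Asns (0.85) and Xbp1 with Asns (0.84). Picked as the highest of all pairs, they still hold the shared scaling of each array. Xbp1, Hspa5 and Asns were each lowest of their group on wild-type control array 1 and on knockout control array 2. Herpud1 had correlations between −0.01 and 0.37 with Atf4, Xbp1, Hspa5 and Asns over the 12 arrays.

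Of 13192 genes with values on all 12 arrays, those with the highest Pearson correlation to Atf4 were Csf2rb (0.97), Lrrc58 (0.96) and Dnajb4 (0.96), which changed by 1.99, 1.09 and 0.98 log2 in wild-type IP hearts. Those nearest to Ppp1r15a were Cxcl5, a neutrophil chemokine (0.99), Cnn3 (0.99) and Otud1 (0.99), which changed by 5.56, 0.98 and 3.70 log2. Those nearest to Xbp1 were Adgrg1 (0.96), Ubxn4 (0.96) and Klhl41 (0.94), which changed by 0.77, 0.17 and 0.996 log2. None of the other genes of the 9 was among the 3 nearest to any of these, and Ddit3, with 11 arrays, was not in the search.

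The wider pathway was described by 8 lists with 115 genes, none of them among the 9, of which 107 were tested. In wild-type hearts 10 passed as higher and 7 as lower, 15.9% of those tested, beside 16.6% of all genes. In knockout hearts 8 passed as higher and 5 as lower, 12.1%, as in all genes tested. None passed between the genotypes in control or IP hearts, or in the difference of the IP effect. Both shares are near those of all genes tested.

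Of 13 tested regulators that ATF4 or CHOP turn on, 4 passed as higher and 1 as lower in wild-type hearts, and 3 as higher and 1 as lower in knockout hearts. These were 38.5% and 30.8% of the list, beside 16.6% and 12.1% of all genes tested. With 13 genes, in a list chosen with earlier results of these data known, these shares are a description only. The list's median was −0.03 log2 in wild-type and 0.18 in knockout hearts, beside −0.05 and −0.08 over all genes tested. The change was above 0 in 6 of the 13 in wild-type and 9 in knockout hearts. Atf3, a stress-induced repressor, rose by 5.40 ± 0.22 and 4.90 ± 0.22 log2 (SE, wild type and knockout), and Gadd45a, a growth arrest gene, by 1.67 ± 0.21 and 1.45 ± 0.21. Cebpb, a partner of ATF4 at CARE sites, rose by 1.67 ± 0.32 and 1.20 ± 0.32. Stc2, a secreted glycoprotein, fell by 1.43 ± 0.24 in knockout hearts. Atf3, Gadd45a and Cebpb are also known to respond to signals outside the integrated stress response.

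Of 9 tested amino acid transporters, 3 passed as higher and 0 as lower in each genotype, and they were the same 3 genes. This was 33.3% of the list, beside 16.6% of all genes tested in wild-type and 12.1% in knockout hearts. With 9 genes this count is too small to set the list apart, and it too was chosen with earlier results known. Slc38a2, a sodium-coupled carrier of neutral amino acids, rose by 0.72 ± 0.10 log2 in wild-type and 0.89 ± 0.10 in knockout hearts (SE). Slc3a2, the heavy chain shared by several exchangers, rose by 0.59 ± 0.11 and 0.42 ± 0.11. Slc7a6, one of its light chains, rose by 0.55 ± 0.14 and 0.46 ± 0.14, the latter at an adjusted p of 0.049 that ended under 14 of 23 alternatives. The knockout call of Slc3a2 and the wild-type call of Slc7a6 each ended under 3 of 23 alternatives. The list's median was 0.55 log2 in wild-type and 0.28 in knockout hearts, beside −0.05 and −0.08 over all genes tested. Of 12 tested genes of amino acid and one-carbon synthesis, the group of Asns, 16.7% passed in wild-type and 8.33% in knockout hearts. These are near the shares of all genes tested. Mthfd1l, a mitochondrial folate enzyme, rose by 1.07 ± 0.33 in wild-type hearts, a call that ended under 8 of 22 alternatives. Cth, which makes cysteine, fell by 1.08 ± 0.31 and 1.40 ± 0.31, and its wild-type call ended under 4 of 22.

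On the folding side of the ER, of 19 tested chaperones and foldases other than Hspa5, 0 passed as higher and 1 as lower in each genotype. This was 5.26% of the list, beside 16.6% of all genes tested in wild-type and 12.1% in knockout hearts. As higher, 6.54% and 4.82% of all genes tested passed, and 0 of 19 is near these shares. Ero1a, an oxidase of disulfide formation, fell by 0.50 ± 0.11 and 0.45 ± 0.11 log2 (SE). The list's median was 0.05 in wild-type and −0.05 in knockout hearts, beside −0.05 and −0.08 over all genes tested. Of 17 tested genes of ER-associated degradation, 17.6% passed in wild-type and 11.8% in knockout hearts, near the shares of all genes. Edem1, a lectin that hands over misfolded glycoproteins, rose by 0.66 ± 0.14 and 0.49 ± 0.14. However, the authors' deposited table gives −0.059 in wild-type hearts for the same probe set, and the knockout call ended under 11 of 23 alternatives. Edem3 and Syvn1, the latter a ubiquitin ligase, fell by 0.37 ± 0.10 and 0.53 ± 0.14 in wild-type hearts, and Edem2 fell by 0.62 ± 0.17 in knockout hearts. In the other genotype their group means also fell, without passing. Edem3 went from 10.54 to 10.24 and Syvn1 from 9.90 to 9.59 log2 in knockout hearts, and Edem2 from 7.88 to 7.69 in wild-type hearts. The mean of all probe sets of Edem3 was 0.21 in wild-type hearts, opposite in direction and past no threshold. Of 13 tested sensors and factors of the unfolded protein response, 0 passed in either genotype. The shares of all genes tested were 16.6% in wild-type and 12.1% in knockout hearts, and with 13 genes this is a description only.

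Of 12 tested eIF2 kinases, eIF2 subunits and exchange factor genes, 1 passed in each genotype. This was 8.33% of the list, beside 16.6% of all genes tested in wild-type and 12.1% in knockout hearts. Nck1, an adaptor that binds eIF2, fell by 0.84 ± 0.13 log2 in wild-type hearts (SE). Eif2ak4, the kinase GCN2, rose by 0.70 ± 0.20 in knockout hearts, a call that ended under 8 of 23 alternatives. Of 12 tested regulators of mTORC1 near Ddit4 in function, 16.7% passed in wild-type and 8.33% in knockout hearts, near the shares of all genes. Sesn1 rose by 0.87 ± 0.15 and Ddit4l, the paralog of Ddit4, fell by 0.87 ± 0.27 in wild-type hearts. Sesn3 fell by 0.75 ± 0.15 in knockout hearts. The call of Ddit4l ended under 12 of 23 alternatives. When probe sets were averaged within each gene, 11 of the calls named in the lists ended with the direction kept. Among them Nck1 was at −0.07 and Ddit4l at −0.64 in wild-type hearts, Sesn1 at 0.45 and Slc7a6 at 0.32 in wild-type hearts, Ero1a at −0.30 and −0.13 in both genotypes, and Eif2ak4 at 0.44 and Sesn3 at −0.16 in knockout hearts. Of the 27 calls named in the 8 lists, 10 held under every alternative that tested the gene (Cth was below the filter at the 60th percentile), those of Atf3, Gadd45a and Slc38a2 in both genotypes, Cebpb and Slc3a2 in wild type, and Stc2 and Cth in knockout.

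**Figure D4:**
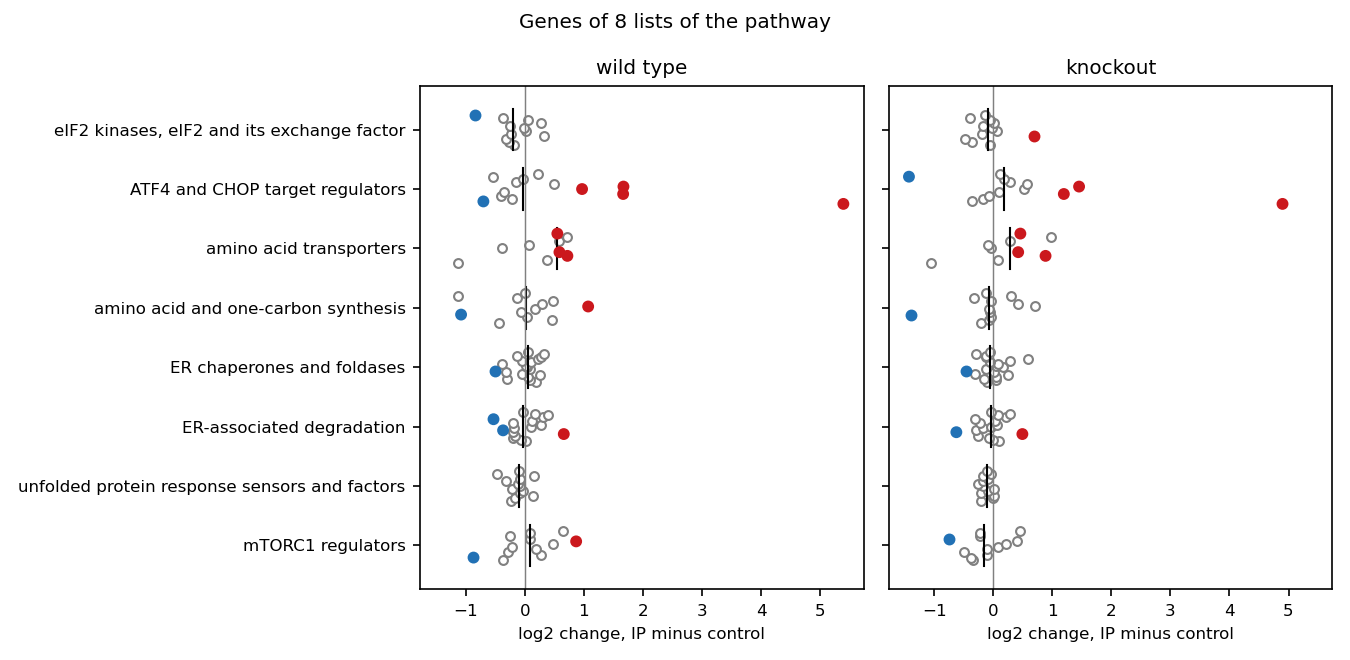
Change in log2 (signal + 16) from control to IP for each tested gene of the 8 lists in wild-type (left) and knockout (right) hearts, in red where it passed as higher, in blue where it passed as lower and open where it did not pass, with a black line at the list's median. Atf3 lies at 5.40 in wild-type and 4.90 in knockout hearts, and the medians of the chaperone and degradation lists lie within 0.05 of 0.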

How the data were processed

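The deposited value table gives 1 linear signal intensity for each probe set on each array; the submitters' processing notes name MAS5, and neither labels nor headers state its scaling target. Raw scans were not used. Per the file headers, the authors' deposited table of comparisons holds a mean log2 expression over arrays and, for each comparison, a log2 difference and a decision score, which is 1 for higher, −1 for lower and 0 otherwise.

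The zero run on wild-type control array 3 was set as missing, and 64 Affymetrix control probe sets were dropped. Signals were turned into log2(signal + 16), so folds are of signals plus 16. Of 45037 probe sets, 27022 had a mean over the 40th percentile; 40137 of the 45037 name 1 gene, 1232 name several and 3668 name none. Names were brought up to date through Entrez identifiers in a RefSeq table (36287 matched, 7947 changed). The brightest probe set stands for a gene. With limma 3.58.1 in R 4.3.3, 4 group means were fitted with an intensity trend; tests were two-sided, adjusted over all genes (Benjamini-Hochberg), with a threshold of 0.05, and the fit was tested on simulated data. Ddit3 was fitted on 11 arrays.

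The 9 genes, the lists and the rules were chosen with earlier results of these data known. All 9 genes are named in every comparison. Each list adds, per IP comparison, up to 3 genes past the threshold with the smallest p, and per genotype comparison up to 2 (none passed). Named too are the 3 genes that correlate best with each of the 9 that passed and has values on 12 arrays; symbols that start with Gm or LOC or end in Rik were passed over. Array medians ranged from 66.5 to 81.1 units. Arrays with the same replicate number were checked for pairing; deviations from group means correlated at −0.056 to 0.076, so they were not paired. The alternatives tried were quantile normalization between arrays, an offset of 1 or 64, a filter at the 60th percentile or none, fits without the trend or with robust moderation, averaged probe sets, zeros kept, a replicate block, each array left out in turn, and the authors' table.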

Additional observations from a re-analysis of the deposited data

How the results depend on the processing

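The calls of Ppp1r15a and Atf4 as higher in both genotypes held under every alternative, with log2 changes of 1.83 to 2.06 and 0.63 to 0.86 in wild-type and of 1.52 to 1.71 and 0.59 to 0.83 in knockout hearts, and that of Xbp1 averaged over both genotypes under the 22 that gave an average (0.29 to 0.45), the authors' table not among them. The Xbp1 call in knockout hearts ended with quantile normalization (adjusted p = 0.083), no filter (0.061), no intensity trend (0.11), zeros kept (0.097) and, with no call, in the authors' table. Trib3 passed as lower in wild-type hearts with the mean of its probe sets (−0.84, adjusted p = 0.027). That mean takes in 1456225_x_at, at −1.65 log2, beside −0.03 by 1426065_a_at. Of the 9 genes, 2 to 4 passed in wild-type hearts with 1 array left out, 4 of them without the third control array, where Xbp1 and Herpud1 joined, and 2 to 3 in knockout hearts. Counts over all genes with 1 array left out were 1420 (without the first wild-type IP array) to 2351 in wild-type hearts, 948 (without the third knockout IP array; 1097 without the third knockout control array) to 1704 in knockout hearts, 5 to 9 between genotypes in controls (9 without wild-type control array 1 or knockout control array 3), and 5 to 39 after IP (39 without the third wild-type control array, 26 without the third knockout control array). After IP the count between genotypes was 16, against 4 with no intensity trend and 6 with zeros kept. A fit with the replicate number as a block called 2 of the 9 genes in wild-type and 3 in knockout hearts, and 2188 and 1537 of all genes, and changed no call of the 9 genes; the pairing check found 0 of 18 pairs of arrays with a correlation over 0.1. Edem1 in wild-type hearts turned to −0.059 in the authors' table and Edem3 to 0.21 with the mean of its probe sets. Low signal limits Trib3 and Asns, the dimmest of the 9, at percentiles 26.7 and 38.6 of mean level among genes tested.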

Other observations

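The average of the IP effect over both genotypes pools all 12 arrays and was described for the 8 pathway lists only by counts. Of the 107 genes tested, 16 passed as higher and 17 as lower by limma, 30.8% beside 26.2% of all genes tested. The eIF2 kinases, eIF2 subunits and exchange factor genes had 1 higher and 4 lower of 12, with a median of −0.16 log2 beside −0.07 over all genes tested. The amino acid transporters had 4 higher and 1 lower of 9, with a median of 0.43. The regulators that ATF4 or CHOP turn on had 4 higher and 2 lower of 13, and the chaperones and foldases 1 higher and 1 lower of 19.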
